A study of Mus musculus with 4 samples.

Results

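Bone morphogenetic protein (BMP) ligands and their antagonists were followed in limb bone marrow cells of mice at postnatal day 12. The 10 genes were chosen by name, with earlier results of these data known. They were the ligands Bmp2, Bmp4, Bmp5, Bmp6 and Bmp7, the antagonists Nog, Grem1, Chrd and Chrdl1, and Bambi. All 10 were found among the 32285 genes of the files, and counts of members that passed are a description of this chosen list. The cells came from C57BL/6 mice labelled control, whose alleles the labels do not give, and from mutants of the genotype Prx1-cre;Mettl3-fl/fl. In these, Cre is driven by the limb mesenchyme enhancer of Prx1, and both copies of Mettl3, which encodes the catalytic subunit of the m6A writer, are floxed. Living cells (DAPI-, Calcein-AM+) negative for CD45 and Ter119, which mark blood cells, came from 3 mice of each genotype, and 10x Genomics 3′ droplet libraries were made. There were 2 libraries per genotype, called control 1, control 2, mutant 1 and mutant 2. The label of mutant 2 says only that it is mutant. Which mouse went into which library is not stated, so a p-value here measures the spread between libraries, which may be technical.

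BMPs are secreted dimers that bind pairs of type I and type II serine/threonine kinase receptors, and the receptors phosphorylate SMAD1, SMAD5 and SMAD9, which enter the nucleus with SMAD4. Noggin (Nog), gremlin (Grem1), chordin (Chrd) and chordin-like 1 (Chrdl1) are secreted proteins that bind BMPs and keep them from their receptors. Bambi is a membrane protein that resembles a type I receptor but lacks the kinase domain. In bone, BMP signals drive mesenchymal cells toward cartilage and osteoblasts, and in the marrow they are made by stromal cells, among others.

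The files held 47390414 to 116863081 UMIs (unique molecular identifiers, each standing for 1 captured RNA molecule) per library, and 2628 to 5808 cells per library passed the filters. The lowest total is that of mutant 1, whose file held only 3352 barcodes, each with at least 501 UMIs. The other files held 1326081 to 2036130 barcodes with a UMI, so the totals do not compare depth. Erythroid cells made up 3.69% to 73.4% of them. Any 2 libraries shared 2 to 10 cell barcodes. Mettl3 was counted at 11.2 and 11.9 CPM (UMIs of a gene scaled to the same total in every class and library) in control mesenchyme and at 3.72 and 6.35 CPM in mutant mesenchyme, and a 3′ tag may lie outside the floxed part. Cells were sorted into classes by marker genes, and stromal, bone and chondrocyte cells together are called mesenchyme. Stromal cells numbered 974 and 47 in the controls and 25 and 13 in the mutants, which is 76.6%, 45.2%, 1.32% and 0.935% of mesenchyme. Bone cells numbered 281, 46, 1858 and 1355, chondrocytes 17, 11, 10 and 23, and endothelial cells 30, 555, 50 and 938. None of the 11 stromal, 16 bone, 13 chondrocyte and 12 endothelial markers was at 0 in its own class in any library. The summed level of the stromal markers in stromal cells was 41022 and 36073 CPM in the controls but 11969 and 16475 CPM in the mutants. In the same cells the bone markers summed to 8339 and 7031 CPM in the controls and to 14344 and 10998 CPM in the mutants. The bone markers in bone cells summed to 249482 and 287700 CPM in the controls and to 156622 and 148336 CPM in the mutants. These shifts accompany the stromal and bone results below, and their part in them was not tested.

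The start regions of 3 of the genes are shown because these genes share a main source, the control stromal cells, and yet differed in the mutants. Each sequence is the 250 bases before the start site in RefSeq on GRCm38.p6, the patch level of mm10, printed 5′ to 3′ on the gene's own strand. Capitals mark GC boxes (GGGCGG) and the GC-rich SMAD motif (GGCGCC), searched on both strands. Bmp4 lies on chr14:46390670-46390919 (minus strand), Bmp5 on chr9:75775115-75775364 (plus strand) and Grem1 on chr2:113758649-113758898 (minus strand).
Bmp4: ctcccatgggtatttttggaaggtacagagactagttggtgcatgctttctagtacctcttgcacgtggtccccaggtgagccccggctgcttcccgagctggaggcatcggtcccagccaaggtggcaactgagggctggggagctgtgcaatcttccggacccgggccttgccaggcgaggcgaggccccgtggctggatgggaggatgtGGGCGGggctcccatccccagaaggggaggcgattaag
Bmp5: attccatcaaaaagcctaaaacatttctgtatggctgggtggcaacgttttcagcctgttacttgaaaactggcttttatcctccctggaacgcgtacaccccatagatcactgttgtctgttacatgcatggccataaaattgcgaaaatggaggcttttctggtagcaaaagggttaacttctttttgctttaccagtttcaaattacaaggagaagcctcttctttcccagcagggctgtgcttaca
Grem1: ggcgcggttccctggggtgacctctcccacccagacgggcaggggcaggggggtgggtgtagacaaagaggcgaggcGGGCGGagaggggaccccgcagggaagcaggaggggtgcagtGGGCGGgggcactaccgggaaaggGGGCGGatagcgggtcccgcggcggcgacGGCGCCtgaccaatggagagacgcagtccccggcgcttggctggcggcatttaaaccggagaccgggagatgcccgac
The window of Grem1 held 3 GC boxes and 1 GC-rich SMAD motif, that of Bmp4 held 1 GC box, and that of Bmp5 held neither. A GC box was found in 32.7% of 32841 mouse promoter windows of this length and GGCGCC in 9.59%. The other 4 motifs searched had no match in the 3 windows: the EBF motif, which is TCCC and GGGA around any 2 bases (0.78% of all windows), the RUNX motif TGTGGT (14%), the TATA box TATAAA (12.4%) and the SMAD palindrome GTCTAGAC (0.167%). The G and C content was 63.2% for Bmp4, 42.8% for Bmp5 and 72.0% for Grem1, beside a median of 52.4% over all windows. A match describes letters in a window and not a bound site.

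In control marrow, 8 of the 10 genes differed between stromal and bone cells. Bmp4, Bmp5, Bmp6, Grem1 and Chrdl1 were higher in stromal cells, and Bmp7, Chrd and Bambi were higher in bone cells. Stromal and bone cells of the control libraries were compared with edgeR's quasi-likelihood test, in which a gene passed at a Benjamini-Hochberg adjusted p under 0.05. Of the 9 genes tested, 5 were higher in stromal cells and 3 lower, where 24.8% of all tested genes were higher and 24.2% lower (49.1% together). The filter on low counts can keep a gene through 1 class alone. Grem1, Chrdl1 and Bmp6 were kept through stromal cells and Bmp7 and Chrd through bone cells, so this count favours genes that differ. Without that filter, 5 of 10 tested members were higher and 3 lower, where 2805 and 2746 of 17874 genes were. Grem1 had 353 and 172 CPM in the stromal cells of control 1 and control 2 but 1.91 and 0 CPM in their bone cells. Chrdl1, at 482 and 405 CPM in stromal cells, had 1.27 and 0 CPM in bone cells. The stromal level of Bmp4 was 630 and 540 CPM and its bone level 14.02 and 3.63 CPM. The log2 differences, stromal minus bone, were 7.89 ± 0.36 (SE) for Chrdl1, 6.77 ± 0.35 for Grem1, 6.34 ± 0.32 for Bmp6, 4.95 ± 0.26 for Bmp4 and 2.21 ± 0.24 for Bmp5. The largest edgeR adjusted p among these 5 was 2.4e-18. Bmp7 had no UMI in the stromal cells of any of the 4 libraries and 128 and 12 UMIs in the bone cells of the controls, which makes it at least 40.5-fold higher in bone cells, taking 3 UMIs over the control stromal cells as the floor. Bambi was lower in stromal cells by 4.54 ± 0.26 on the log2 scale and Chrd fell by 2.36 ± 0.60 from bone to stromal cells (edgeR adjusted p = 1.2e-64 and 3.2e-04). The calls of Chrd and Bmp7 were lost in DESeq2 (adjusted p = 0.15 and 0.24). Bmp2 did not pass (log2 -0.53 ± 0.30, edgeR adjusted p = 0.13), and Nog was too low to be tested.

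**Figure D1:**
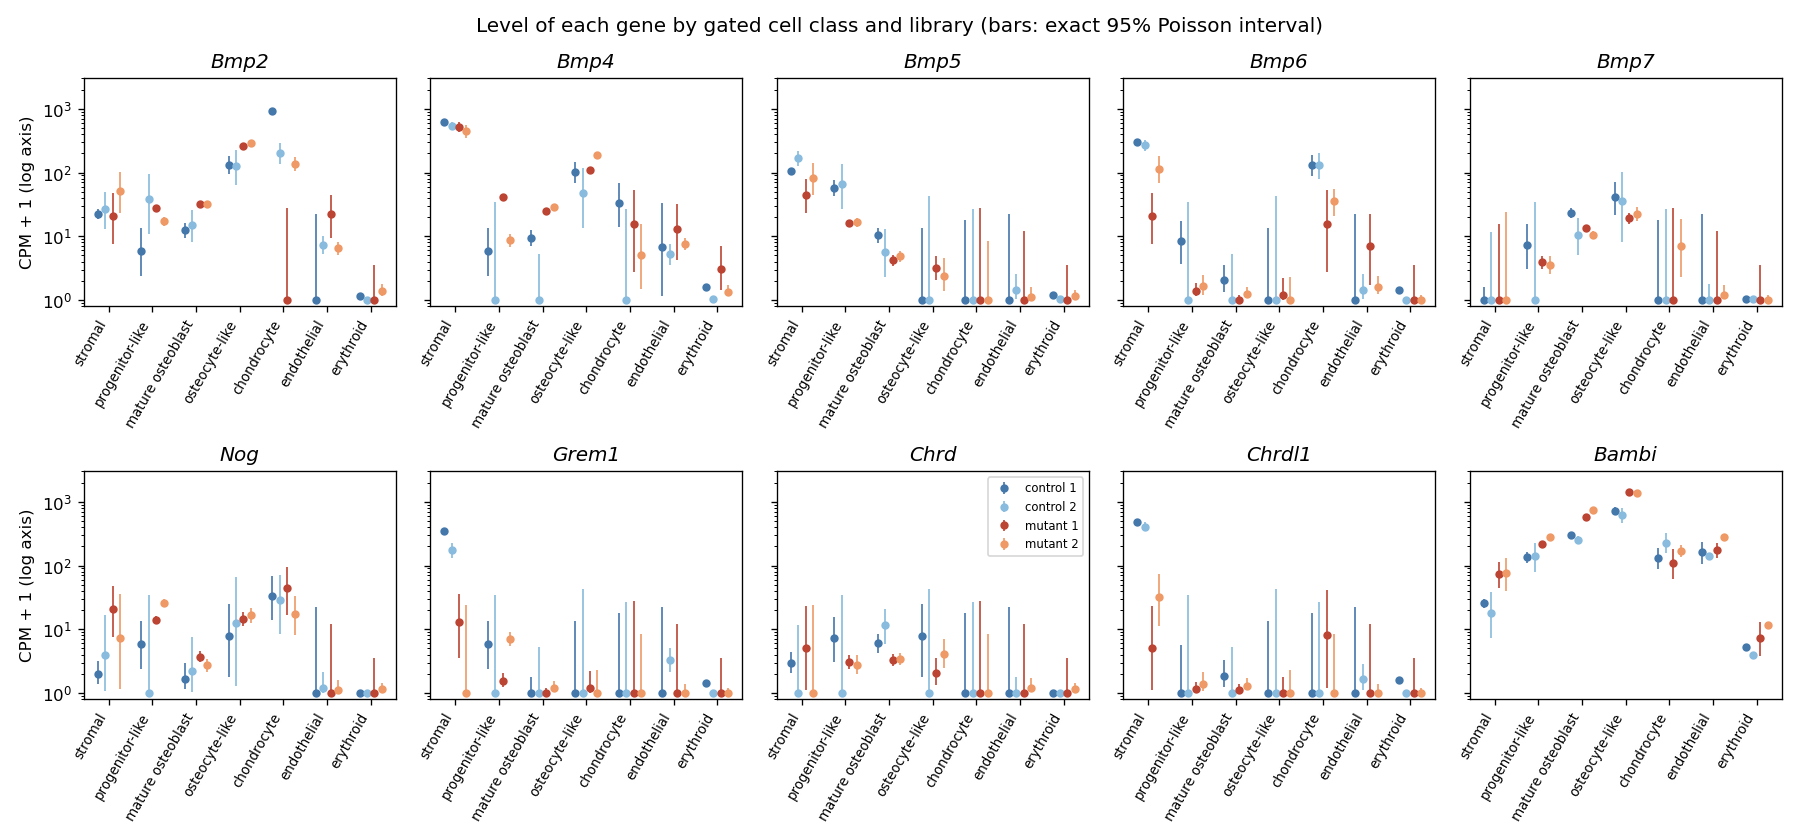
Level of each of the 10 genes (CPM + 1, log axis) in 7 gated cell classes, with 1 point per library and exact 95% Poisson intervals for counting error. Bmp4, Bmp5, Bmp6, Grem1 and Chrdl1 stand highest in control stromal cells, Bmp7 and Bambi in osteocyte-like cells, and erythroid cells lie near the bottom for every gene.

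Within the bone lineage, Bambi, Bmp2 and Bmp4 stood highest in osteocyte-like cells and Bmp5 in progenitor-like cells. Bone cells were split by markers into progenitor-like cells, mature osteoblasts and osteocyte-like cells, with 6 osteocyte-like and 8 progenitor-like cells in control 2, so of the subtypes only mature osteoblasts could be fitted with all 4 libraries. Bambi was highest in osteocyte-like cells in all 4 libraries, at 713, 621, 1447 and 1378 CPM (control 1, control 2, mutant 1, mutant 2, the order used throughout). It stood at 298, 252, 587 and 731 CPM in mature osteoblasts and at 133, 138, 220 and 280 CPM in progenitor-like cells, and within each library the exact 95% Poisson intervals of osteocyte-like cells lay above those of the other subtypes. Bmp2 had 131, 127, 263 and 295 CPM in osteocyte-like cells against 11.4, 14.1, 31.1 and 31.3 CPM in mature osteoblasts. Bmp4 had 100, 46.0, 107 and 187 CPM in osteocyte-like cells against 8.51, 0, 23.5 and 27.6 CPM in mature osteoblasts. In progenitor-like cells Bmp2 had 4.96, 36.8, 26.3 and 16.2 CPM and Bmp4 had 4.96, 0, 39.7 and 7.66 CPM, so progenitor-like cells lay above mature osteoblasts for Bmp2 in control 2 and for Bmp4 in mutant 1. Bmp5 was highest in progenitor-like cells, with 57.0, 64.4, 15.04 and 15.4 CPM in progenitor-like cells, 9.39, 4.69, 3.22 and 3.82 CPM in mature osteoblasts and 0, 0, 2.15 and 1.39 CPM in osteocyte-like cells. The osteocyte-like values of control 2 rest on 6 cells and 1 to 54 UMIs for the genes detected there.

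Chondrocytes and endothelial cells held little of most members. Chondrocytes carried Bmp2 at 910, 199, 0 and 136 CPM, Bmp6 at 130, 130, 14.5 and 34.4 CPM, and Nog at 32.5, 27.5, 43.4 and 16.2 CPM, while Bmp5, Grem1 and Chrd had no UMI there in any library. In the controls Bmp2 and Nog were higher in chondrocytes than in stromal or bone cells. The bone markers summed to 45935 to 49225 CPM in the chondrocyte class of the 4 libraries. In endothelial cells Bambi was at 160, 138, 174 and 280 CPM, and each of the other members was at 21.01 CPM or less. Over all libraries, 7 of 9 tested members were higher in bone than in endothelial cells and none was lower, where 25.3% of all tested genes were higher and 19.9% lower (45.2% together). The 7 were Bmp2, Bmp4, Bmp5, Bmp7, Nog, Chrd and Bambi, and their differences ran from a log2 of 1.97 ± 0.22 for Bambi to 6.65 ± 0.62 for Bmp7 (edgeR adjusted p of at most 6.9e-04). Bmp6 (-0.90 ± 1.05) and Grem1 (2.27 ± 1.30) did not pass that test. Bmp5 and Nog, at 0.418 CPM or less in endothelial cells, were kept by the filter on low counts through bone cells. The count of members therefore favours genes that differ. Without that filter, 7 of 10 tested members were higher in bone cells and none lower, where 4023 and 3017 of 21185 genes were. Erythroid cells served as a class that should lack these genes: the largest member level there, apart from Bambi, was 2.08 CPM for Bmp4 in mutant 1, and Bambi had 4.23, 2.96, 6.23 and 10.6 CPM.

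Genotypes were first compared over mesenchyme as a whole, which asks what the marrow mesenchyme supplied as a unit. Bmp2, Nog and Bambi rose and Bmp4, Bmp5, Bmp6, Grem1 and Chrdl1 fell, so 8 of the 10 members passed, where 28.3% of all 14016 tested genes passed (14.3% higher, 14% lower). These sums move with the shares of the classes given above, so fewer cells of a class and less RNA per cell cannot be told apart in them. Chrdl1 had 233 and 88.4 CPM in the controls and 0.154 and 0.466 CPM in the mutants (log2 -8.69 ± 0.50, edgeR adjusted p = 1.5e-04). The filter on low counts kept Chrdl1 through the controls. Bmp6, a ligand with a role in iron sensing, had 147 and 70.2 CPM in the controls and 0.359 and 1.58 CPM in the mutants (log2 -6.60 ± 0.60, edgeR adjusted p = 6.3e-04). Grem1 had 171 and 37.6 CPM in the controls and 0.308 and 1.83 CPM in the mutants (log2 -6.25 ± 0.90, edgeR adjusted p = 0.0037). In all 3 genes both controls lay far above both mutants, and control 1 lay above control 2. How many of all genes separate the genotypes in this way was not counted.

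Bmp5 had 57.9 and 43.9 CPM in control mesenchyme and 7.84 and 7.25 CPM in mutant mesenchyme (log2 -2.43 ± 0.17, edgeR adjusted p = 2.5e-04). Bmp4 had 312 and 120 CPM in the controls and 42.7 and 40.4 CPM in the mutants (log2 -1.93 ± 0.25, edgeR adjusted p = 0.0025). Bambi had 163 and 209 CPM in the controls and 544 and 657 CPM in the mutants (log2 2.02 ± 0.18, edgeR adjusted p = 6.4e-04). The groups did not overlap for these 3 genes, which with 2 libraries against 2 is a description, since the share of all genes without overlap was not counted. Nog moved from 1.75 and 4.39 CPM to 8.12 and 9.87 CPM (log2 2.23 ± 0.41, edgeR adjusted p = 0.0083), and Bmp2 from 34.0 and 40.8 CPM to 56.9 and 56.2 CPM (log2 0.95 ± 0.19, edgeR adjusted p = 0.011). Bmp7, at 10.2 and 7.53 CPM in the controls and 9.33 and 8.61 CPM in the mutants, did not pass (log2 0.34 ± 0.25, edgeR adjusted p = 0.36), and neither did Chrd (log2 -0.61 ± 0.47, edgeR adjusted p = 0.37). Without control 1 the calls of Bmp4, Nog and Bambi were lost (edgeR adjusted p = 0.083, 0.16 and 0.062), and that of Bmp2 was lost without control 1, control 2 or mutant 1 (edgeR adjusted p = 0.20, 0.056 and 0.10). Within processing batches, the mesenchymal log2 ratio was -2.87 and -1.58 for Bmp4, 1.74 and 1.65 for Bambi, 2.21 and 1.17 for Nog, and 0.74 and 0.46 for Bmp2.

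The class that supplied most mesenchymal UMIs differed between genotypes for Bmp4, Bmp5 and Bmp2. Of the mesenchymal UMIs of Bmp4, 97.6% and 97.9% lay in stromal cells in the controls, whereas 92.2% and 93.6% lay in bone cells in the mutants. Bmp5 went from 86.7% and 82.9% in stromal cells to 96.4% and 93.6% in bone cells. These shares move with the numbers of cells, and stromal cells were 1.32% and 0.935% of mutant mesenchyme. Per UMI, mutant stromal cells still had more Bmp4 than mutant bone cells (512 and 441 CPM against 39.8 and 38.7 CPM). For Bmp2, chondrocytes held 45.9% and 44.6% of the UMIs in the controls and 0% and 4.28% in the mutants, and bone cells then held 99.8% and 95.2%. Bambi was mostly bone in every library, at 91.4%, 88.3%, 99.8% and 99.5% of its mesenchymal UMIs. Bmp7 was at 98.8% or more in bone cells in all 4 libraries. The mutant shares of Bmp6, Grem1 and Chrdl1 rest on 6 to 51 UMIs. In mutant 2 stromal cells still held the largest share of Bmp6, at 40.9% beside 38.6% in chondrocytes and 20.5% in bone cells.

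**Figure D2:**
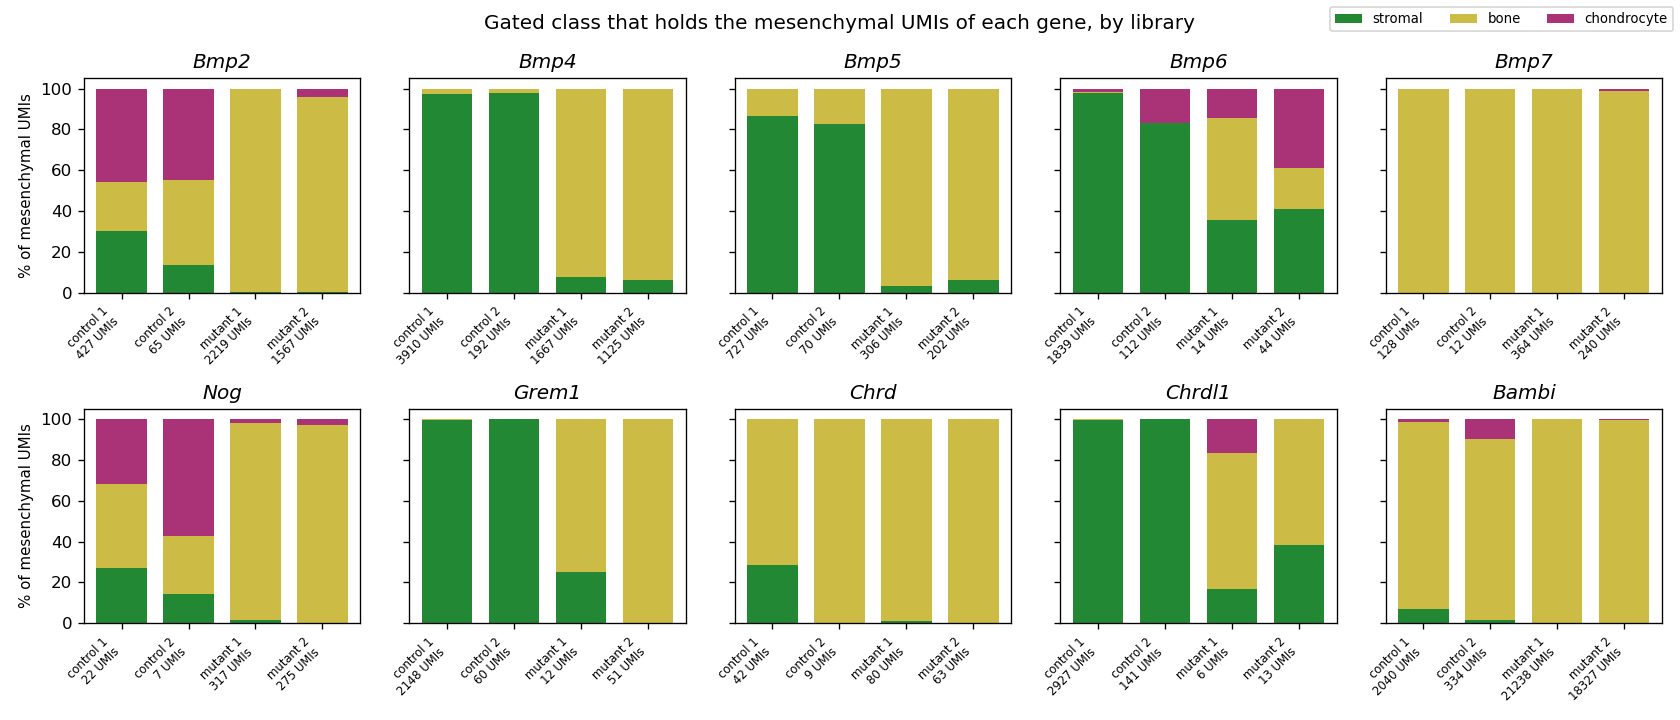
Share of each gene's mesenchymal UMIs (percent, stacked to 100) found in stromal, bone and chondrocyte cells, with 1 bar per library and the number of UMIs under it. Bmp4 and Bmp5 move from stromal bars in the controls (97.6% and 97.9%, 86.7% and 82.9%) to bone bars in the mutants.

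Within stromal cells the antagonists Grem1 and Chrdl1 and the ligands Bmp6 and Bmp5 fell in the mutants, Bambi rose, and Bmp4 did not pass the test. Of the 6 members tested 5 passed, 1 higher and 4 lower, where 16.2% of all tested genes passed (8.27% higher, 7.98% lower). The filter on low counts, which acted on all genes alike, can keep a gene through 1 genotype alone. Grem1 and Chrdl1 were kept through the controls and Bambi through the mutants, while Bmp2 was dropped, so this count favours genes that differ. Without that filter, 1 of 9 tested members rose and 3 fell, where 756 of 16880 genes passed. Chrdl1 had 482 and 405 CPM in control stromal cells and 3.999 and 31.5 CPM in mutant ones (log2 -4.80 ± 0.43, edgeR adjusted p = 5.8e-25), from 3060 UMIs in the controls and 6 in the mutants. Grem1 had 353 and 172 CPM in the controls and 11.997 and 0 CPM in the mutants, or 2196 against 3 UMIs, a ratio of pooled CPM of 46.7 with an exact 95% interval of 16.0 to 227 for counting error (edgeR adjusted p = 3.3e-20). Both calls held in every alternative run, with the largest adjusted p at 0.0071 for Chrdl1 and 0.0017 for Grem1. Bmp6 had 296 and 267 CPM in the controls and 19.995 and 113 CPM in the mutants (log2 -2.23 ± 0.34, edgeR adjusted p = 4.0e-09), and its call was lost without control 1 or mutant 1 (edgeR adjusted p = 0.062 and 0.093). The ratio of Bmp6 differed by batch, with a log2 of -3.89 in the first and -1.24 in the second.

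Bmp4 had 630 and 540 CPM in control stromal cells and 512 and 441 CPM in mutant ones (log2 -0.19 ± 0.29, edgeR adjusted p = 0.73). The mutants were both below the controls, by less than the standard error of the fit, and the sign turned without the top 5% of cells by UMI (log2 0.040) and without mutant 2 (0.0035). Bmp5 had 104 and 167 CPM in the controls and 44.0 and 81.9 CPM in the mutants (log2 -1.04 ± 0.37, edgeR adjusted p = 0.034), but its call was lost in 8 alternatives, each left-out library included (adjusted p of 0.055 to 0.99). Bambi had 24.4 and 17.2 CPM in the controls and 72.0 and 75.6 CPM in the mutants (log2 1.84 ± 0.47, edgeR adjusted p = 0.0014). Its call was lost in DESeq2 (adjusted p = 0.14) and without control 1, control 2 or mutant 1 (edgeR adjusted p = 0.17, 0.28 and 0.10). Bmp2, at 21.5, 25.9, 19.995 and 50.4 CPM, was too low to be tested, as were Nog, Chrd and Bmp7. All genes shared 1 spread in this fit, since its prior degrees of freedom were infinite, and the mutant sums come from 25 and 13 cells.

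**Figure D3:**
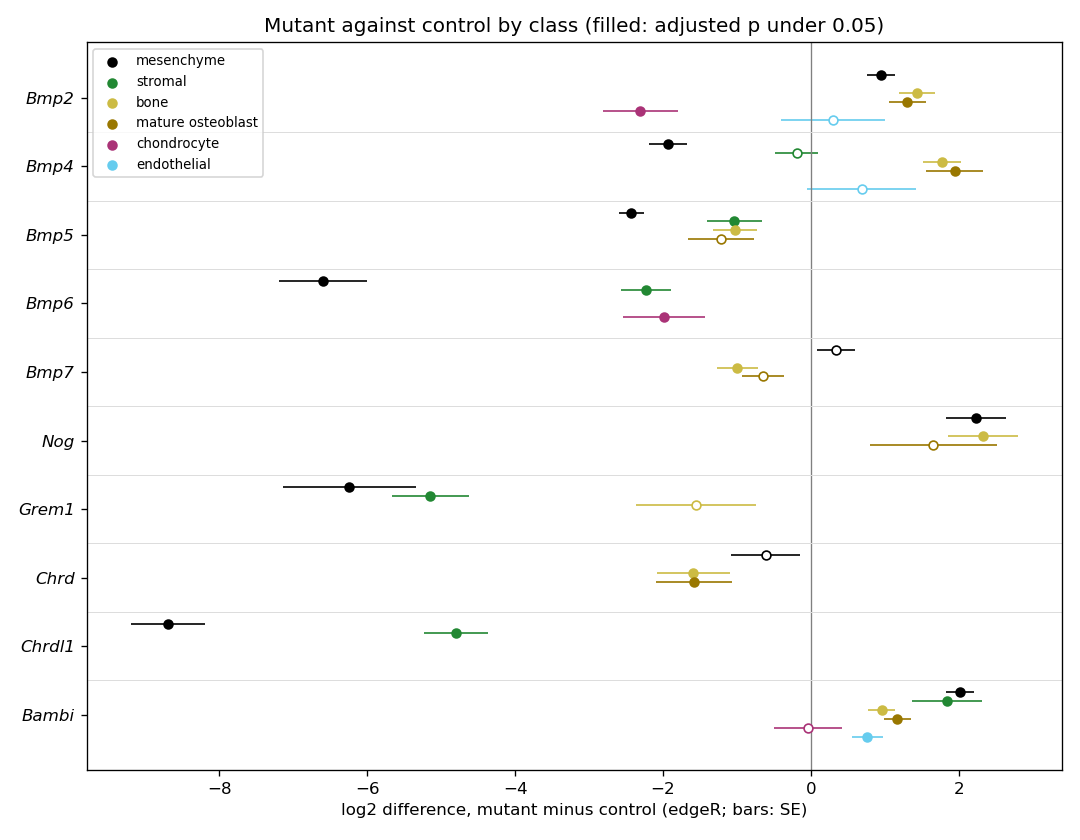
Log2 difference, mutant minus control, of each member in mesenchyme and in 5 cell classes, as fitted by edgeR, with bars for the standard error and filled points where the adjusted p is under 0.05. Bmp4 lies at -1.93 in mesenchyme, at -0.19 in stromal cells and at 1.77 in bone cells.

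Detection per cell was compared after every cell had been thinned to 1000 UMIs. A UMI of Bmp4 was found in 41.4% and 53.2% of control stromal cells and in 40% and 46.2% of mutant ones, so the ranges of the 2 genotypes overlapped, and the difference of the means, mutant minus control, went from -4.21 to 3.37 percentage points in a second random draw. Those of Chrdl1, Grem1, Bmp6 and Bambi kept their sign in that draw. Chrdl1 was found in 34.7% and 53.2% of control stromal cells and in none of the 25 and 13 mutant cells, which allows shares of up to 13.7% and 24.7% by the exact 95% binomial interval. Grem1 was found in 27.3% and 14.9% of control cells and in 4% and 0% of mutant cells. Bmp6 was found in 26.5% and 36.2% of control cells and in 0% and 7.69% of mutant cells. Bambi went the other way in stromal cells, at 2.46% and 4.26% in the controls and 12% and 30.8% in the mutants. Without thinning, the shares of stromal cells with a UMI were 76.7%, 83.0%, 72.0% and 84.6% for Bmp4, 74.5%, 76.6%, 4% and 15.4% for Chrdl1, and 70.7%, 53.2%, 4% and 0% for Grem1. In erythroid cells at the same thinned depth, Bambi was found in 0.338% to 2.64% of cells, and each other member in at most 0.211%. With 2 libraries against 2 the exact two-sided permutation test cannot go below p = 0.333, so these shares were not called.

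Ligand and antagonist were often detected in the same control stromal cells. In control 1, 62.1% of stromal cells held UMIs of both Bmp4 and Chrdl1 and 56.9% of both Bmp4 and Grem1, and in control 2 the shares were 65.96% and 44.7%. In the mutants 1 of 25 and 2 of 13 stromal cells held both Bmp4 and Chrdl1, and no cell held both Bmp4 and Grem1. Counted gene by gene, 76.7% and 83.0% of control cells held Bmp4, 74.5% and 76.6% Chrdl1, and 70.7% and 53.2% Grem1. In mutant 1 and mutant 2 the shares were 4% and 15.4% for Chrdl1 and 4% and 0% for Grem1. Whether the joint shares differ from those of independent detection was not tested. These shares were not matched for depth, and the median stromal cell had 5736, 7348, 10437 and 12039 UMIs.

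**Figure D4:**
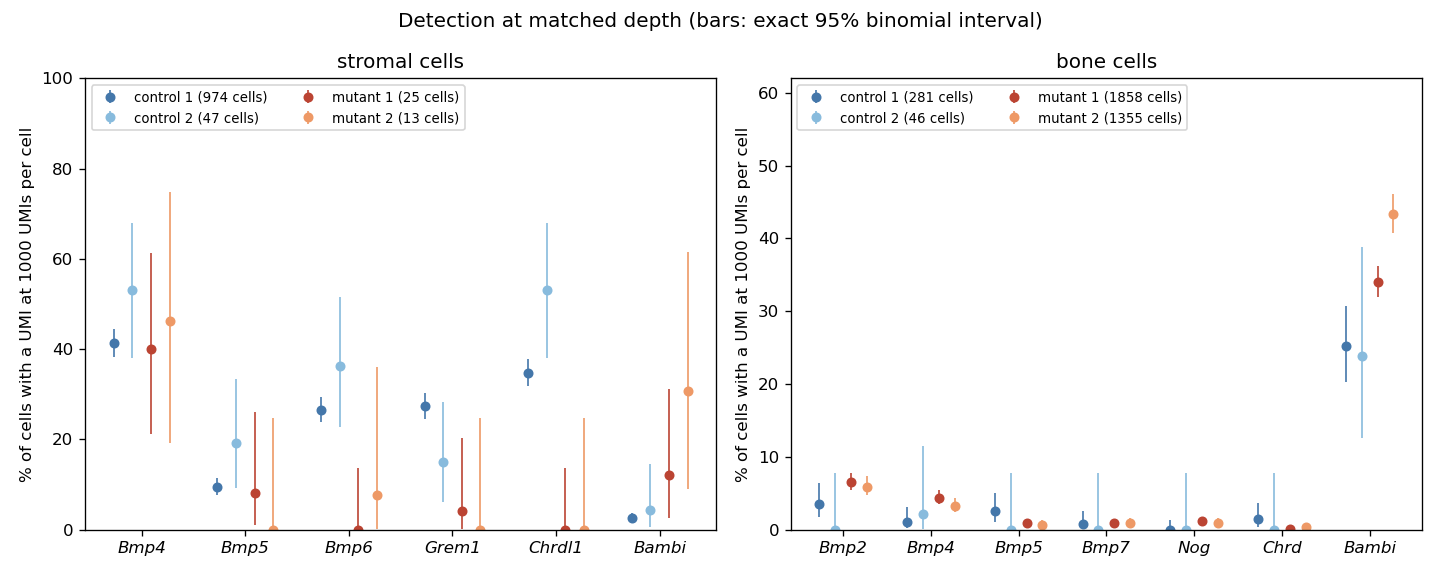
Share of stromal cells (left) and bone cells (right) with a UMI of the gene after thinning each cell to 1000 UMIs, with 1 point per library and exact 95% binomial intervals. In stromal cells Bmp4 stays between 40% and 53.2% in all 4 libraries while Chrdl1 is at 0% in both mutants, and in bone cells Bambi is at 25.3% and 23.9% in the controls and 34.1% and 43.4% in the mutants.

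Within bone cells Bmp2, Bmp4, Nog and Bambi rose in the mutants and Bmp5, Bmp7 and Chrd fell. That is 7 of 8 tested members, 4 higher and 3 lower, where 23.5% of all tested genes passed (13.2% higher, 10.3% lower). Bmp4 had 14.02 and 3.63 CPM in control bone cells and 39.8 and 38.7 CPM in mutant ones (log2 1.77 ± 0.26, edgeR adjusted p = 3.5e-10), with 4 UMIs in control 2. Bmp2 had 16.1 and 24.5 CPM in the controls and 57.3 and 54.8 CPM in the mutants (log2 1.43 ± 0.24, edgeR adjusted p = 1.1e-07). Nog had 1.43 and 1.82 CPM in the controls and 7.92 and 9.77 CPM in the mutants (log2 2.33 ± 0.47, edgeR adjusted p = 1.4e-05), from 9 and 2 UMIs in the controls. Bambi had 297 and 268 CPM in the controls and 549 and 670 CPM in the mutants (log2 0.96 ± 0.18, edgeR adjusted p = 4.2e-06). For all 4 genes both mutants lay above both controls, and the share of all genes that did so was not counted. These sums mix bone subtypes whose shares differed between genotypes, as given below.

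The members that fell stood at 20.4 CPM or less over the bone cells of each library. Bmp5 had 15.5 and 10.9 CPM in the controls and 7.64 and 6.94 CPM in the mutants (log2 -1.03 ± 0.30, edgeR adjusted p = 0.0049). Bmp7 had 20.4 and 10.9 CPM in the controls and 9.42 and 8.71 CPM in the mutants (log2 -0.99 ± 0.28, edgeR adjusted p = 0.0036). Chrd had 4.78 and 8.18 CPM in the controls and 2.05 and 2.31 CPM in the mutants (log2 -1.59 ± 0.49, edgeR adjusted p = 0.0080). These 3 calls were lost in DESeq2 (adjusted p = 0.19, 0.21 and 0.11) and without the batch term (edgeR adjusted p = 0.063, 0.080 and 0.067), as was that of Bambi without the batch term (edgeR adjusted p = 0.072). The Bambi call was also lost without any 1 of the 4 libraries (edgeR adjusted p of 0.16 to 0.21). Grem1 did not pass (log2 -1.55 ± 0.81, edgeR adjusted p = 0.16), and its 51 bone UMIs in mutant 2 lay in 9 cells. Without control 1, and again without control 2, no member was called in bone cells by edgeR, where 9 and 148 genes of all were still called. The adjusted p of Bmp2, Bmp4 and Nog was then 0.19, 0.11 and 0.18 without control 1, and 0.064, 0.082 and 0.060 without control 2. Within batches the bone log2 ratios were 1.83 and 1.16 for Bmp2, 1.504 and 3.41 for Bmp4, and 0.89 and 1.32 for Bambi.

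The bone subtypes were unequal between genotypes: mature osteoblasts numbered 183 of 281, 30 of 46, 730 of 1858 and 739 of 1355 bone cells. Osteocyte-like cells numbered 18, 6, 354 and 248, and progenitor-like cells 50, 8, 754 and 356. Osteocyte-like cells held 39 of 101, 11 of 27, 1223 of 2214 and 848 of 1492 bone UMIs of Bmp2. Progenitor-like cells held 192 of 306 and 193 of 266 bone UMIs of Nog in the mutants. In the sums over bone cells, a change in subtype shares and a change in RNA per cell cannot be told apart. Among mature osteoblasts alone, Bmp2, Bmp4 and Bambi rose and Chrd fell, 4 of 7 tested members, where 18.3% of all tested genes passed (11.2% higher, 7.08% lower). Bambi rose by a log2 of 1.17 ± 0.18 (edgeR adjusted p = 1.2e-04), Bmp2 by 1.31 ± 0.25 (edgeR adjusted p = 0.0011) and Bmp4 by 1.94 ± 0.39 (edgeR adjusted p = 0.0014). Their CPM in each library were given above with the subtypes. For all 3 both mutants lay above both controls, and how many of all genes did so was not counted. Chrd had 5.02 and 10.5 CPM in the controls and 2.33 and 2.43 CPM in the mutants (log2 -1.58 ± 0.51, edgeR adjusted p = 0.035), a call that held in 4 of 11 alternatives and in none of the fits with a library left out. Bmp5 (log2 -1.22 ± 0.45, edgeR adjusted p = 0.066), Bmp7 (-0.65 ± 0.29, 0.13) and Nog (1.65 ± 0.86, 0.20) did not pass. In DESeq2 only Bambi was still called in mature osteoblasts, with adjusted p of 0.055 for Bmp2 and 0.43 for Bmp4. The fitted value of Bmp4, which had no UMI in control 2, ran from 1.40 to 11.3 with 1 library left out, and the upper value is a fit against 0. The Bmp2 call was lost without control 1 (edgeR adjusted p = 0.16), and that of Bambi was lost without any 1 of the libraries (edgeR adjusted p of 0.077 to 0.15). In osteocyte-like cells Bambi and Bmp2 were higher in both mutants than in both controls, at the levels given above. How many of all genes were so in osteocyte-like cells was not counted. The 11 Bmp2 UMIs of control 2 lay in 1 of its 6 osteocyte-like cells. Without control 2, edgeR called none of 6 tested members there, where 0.732% of all genes passed, with Bmp2 and Bmp7 at an unadjusted p under 0.05 (adjusted p = 0.30 and 0.25). In progenitor-like cells the same fit called none of 9, where 0.0726% of all genes passed, with Bmp2, Bmp5, Bmp6, Nog and Bambi at an unadjusted p under 0.05 (edgeR adjusted p of 0.11 to 0.29). Nog in progenitor-like cells was at 4.96 and 0 CPM in the controls and 12.9 and 24.6 CPM in the mutants, from 4, 0, 192 and 193 UMIs.

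Chondrocytes allowed 3 members to be tested, of which Bmp2 and Bmp6 fell, where 11% of all tested genes passed (6.23% higher, 4.82% lower). Bmp2, which hypertrophic chondrocytes make, had 196 and 29 UMIs in the controls and 0 and 67 in the mutants (log2 -2.31 ± 0.51, edgeR adjusted p = 3.1e-04). The 196 UMIs of control 1 lay in 7 of 17 cells, and without that library the difference was -0.98 (edgeR adjusted p = 0.77). Bmp6 fell by 1.99 ± 0.55 on the log2 scale (edgeR adjusted p = 0.0064), and its call was lost without control 1, control 2 or mutant 1 (edgeR adjusted p = 0.51, 0.16 and 0.13). In DESeq2 Bmp2 was not called (adjusted p = 0.58) and Bmp6 had no adjusted p. Bambi, at 130, 226, 108 and 168 CPM, did not pass (log2 -0.04 ± 0.46, edgeR adjusted p = 0.97).

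In endothelial cells 1 of 3 tested members passed, where 5.78% of all tested genes passed (2.61% higher, 3.17% lower). Bambi had 160 and 138 CPM in the controls and 174 and 280 CPM in the mutants (log2 0.76 ± 0.21, edgeR adjusted p = 0.0064). The log2 ratio was 0.12 in the first batch and 1.02 in the second, and the call was lost without any 1 of the libraries, without the batch term, and in DESeq2. Bambi was also higher in the erythroid cells of the mutants (6.23 and 10.6 CPM against 4.23 and 2.96 CPM), and the bone markers summed to 4334 and 3864 CPM in the endothelial cells of the controls and to 7586 and 5595 CPM in those of the mutants. The part of either in the endothelial value was not tested. At 1000 UMIs per cell, Bambi was found in 10.0%, 11.5%, 14% and 27.1% of endothelial cells. Bmp2 (log2 0.30 ± 0.7) and Bmp4 (0.69 ± 0.74) did not pass in endothelial cells.

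Whether the genotype difference itself differed between classes was tested with a class by genotype term. The difference of Bmp4, mutant minus control, was larger by 2.02 ± 0.38 on the log2 scale in bone than in stromal cells (edgeR adjusted p = 2.3e-05), and Grem1 differed by 4.29 ± 0.82 in the same direction (edgeR adjusted p = 2.6e-05). These 2 of 10 members passed, where 4.07% of all tested genes passed (2.43% higher, 1.63% lower). The 10 include Bmp7, which had no UMI in the stromal cells of any library, so its term could not be estimated. Bmp2 differed by 3.77 ± 0.51 between bone cells and chondrocytes (edgeR adjusted p = 1.1e-10), the only 1 of 5 tested members that passed, where 4.31% of all tested genes passed (2.36% higher, 1.95% lower). Both of these fits were added after the levels had been seen. Without control 2 the Bmp4 call was lost (edgeR adjusted p = 0.076). The Grem1 call was lost in DESeq2 and without control 1 or mutant 2 (adjusted p = 0.53, 0.13 and 0.41), and the Bmp2 call in DESeq2 and without control 1 (adjusted p = 0.33 and 0.088). Between bone and endothelial cells none of 9 tested members passed in edgeR, where 2.35% of all tested genes passed (1.1% higher, 1.25% lower), with 2 members at an unadjusted p under 0.05 and none called by DESeq2.

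Other genes of the pathway were counted from lists by role. In these counts the shares of all tested genes that passed are those given above: 14.3% higher and 14% lower in mesenchyme, 13.2% and 10.3% in bone cells, and 8.27% and 7.98% in stromal cells. In mesenchyme, 3 of 9 tested receptors and co-receptors fell and 1 rose, with a median log2 difference of -0.39 beside 0.01 over all genes. Acvr2a, a type II receptor, fell by 1.91 ± 0.22 and Acvrl1, a type I receptor of endothelium, by 2.98 ± 0.43 on the log2 scale. Rgma, a co-receptor, fell by 1.64 ± 0.46, and the type II receptor Acvr2b rose by 0.91 ± 0.26. In bone cells 3 of 9 receptors rose and none fell, with a median of 0.63 beside 0.03: the co-receptor Eng by 1.64 ± 0.33, Acvr2b by 1.58 ± 0.38 and the type I receptor Acvr1 by 0.71 ± 0.23. In control libraries, all 9 tested receptors were higher in stromal than in bone cells, where 24.8% of all tested genes were.

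Of the other secreted antagonists, 5 of 11 tested fell and 2 rose in mesenchyme, with a median log2 difference of -0.62. Follistatin-like 1 (Fstl1) fell by 2.34 ± 0.20 and Vwc2 by 4.07 ± 0.63. Follistatin (Fst), which binds activins and BMPs, fell by 2.97 ± 0.34 in mesenchyme but rose by 3.09 ± 0.38 in bone cells, where it had 3.35 and 1.82 CPM in the controls and 35.2 and 4.92 CPM in the mutants, so mutant 1 stood far above mutant 2. In bone cells 5 of 10 antagonists rose and 2 fell, with a median of 0.54. Vwc2 fell by 5.17 ± 0.81 and Nbl1 by 1.06 ± 0.22. Sost, the osteocyte gene for sclerostin, had 0.159 and 0 CPM in the controls and 1.45 and 7.38 CPM in the mutants (edgeR adjusted p = 0.0010). These levels come from 1, 0, 56 and 201 UMIs. In bone cells the filter on low counts kept Sost through the mutants. Vwc2 was kept there through the controls (3.67 and 7.27 CPM against 0.104 and 0.220 CPM in the mutants). Osteocyte-like cells numbered 18, 6, 354 and 248 in the 4 libraries, and their part in this rise was not tested.

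Of the other ligands, 2 of 8 tested rose and 2 fell in mesenchyme, with a median log2 difference of 0.58, and in bone cells 3 of 7 rose and 1 fell, with a median of 0.25. Bmp3, a ligand that opposes osteogenic BMPs, had 92.8 and 113 CPM in control bone cells and 205 and 208 CPM in mutant ones, and Bmp8a had 10.8 and 18.2 CPM and then 47.8 and 57.8 CPM. Both rose there, by 0.88 ± 0.21 and 1.83 ± 0.25 on the log2 scale (edgeR adjusted p = 2.7e-04 and 1.7e-11). Inhbb, an activin subunit, passed in bone cells (2.62 ± 0.78), but it had 0.319 and 1.82 CPM in the controls, from 2 UMIs each, and 4.74 and 1.84 CPM in the mutants, so the second batch showed almost no difference. Gdf10 fell by 3.53 ± 0.52 in mesenchyme and by 3.70 ± 0.71 in bone cells, and Gdf5, a joint-forming ligand, fell by 3.25 ± 0.63 in mesenchyme. Gdf10 had 4.46 and 5.45 CPM in control bone cells and 0.466 and 0.294 CPM in mutant ones, so the filter kept it through the controls. In endothelial cells Bmp1, which is a procollagen protease despite its name, rose by 1.35 ± 0.29, with 57.3 and 17.6 CPM in the controls and 81.1 and 52.1 CPM in the mutants, so the groups overlapped. The antagonist Fstl1 rose there by 1.52 ± 0.19. Bone cells held Bmp1 at 385 to 498 CPM, and the part of the higher bone markers of mutant endothelial cells in these rises was not tested.

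Among response genes, a list that contains Bambi and Nog, 8 of 15 tested rose and 2 fell in mesenchyme, with a median log2 difference of 0.73. Id4 fell by 2.83 ± 0.16, and the osteoblast factors Sp7 and Dlx5 rose by 1.07 ± 0.16 and 0.88 ± 0.15. Sp7 is 1 of the 16 bone markers of the gate, and bone cells were 22.1%, 44.2%, 98.2% and 97.4% of mesenchyme. Its mesenchymal rise was therefore set in part by the gate and is not a separate result. Within bone cells Sp7 had 186, 203, 173 and 262 CPM, so the groups overlapped. In bone cells 4 of 15 rose and 2 fell, with a median of 0.49: Hey1 fell by 1.52 ± 0.28 and Id2 by 0.88 ± 0.22, and Bambi and Nog were the 2 strongest rises by p. Hey1 had 13.6 and 24.5 CPM in control bone cells and 3.70 and 14.4 CPM in mutant ones, so the groups overlapped. Id4 passed in endothelial cells (-1.04 ± 0.315), with 5.73 and 54.1 CPM in the controls and 9.01 and 25.3 CPM in the mutants. The first batch, with 1 and 3 UMIs, went up, and the fall was in the second. Of 9 signal transducers, Smad6 and Smad1 rose in mesenchyme (0.70 ± 0.16 and 0.59 ± 0.15), and in bone cells Smad9 alone passed, falling by 0.80 ± 0.30, both shares below those of all tested genes (28.3% and 23.5%). The groups overlapped for Smad6 in mesenchyme (24.9, 35.1, 31.2 and 46.7 CPM) and for Smad9 in bone cells (9.56, 19.1, 6.42 and 11.1 CPM). In stromal cells 5 of 8 tested response genes rose and 1 fell, with a median of 1.18 beside -0.03 over all genes. The 8 include Bambi, which the filter on low counts kept through the mutants. They also include the gate marker Sp7, at 16.8, 43.1, 44.0 and 139 CPM, in cells whose bone markers summed higher in the mutants. The mutant sums come from 25 and 13 cells, so this count is not a separate result.

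The genes whose levels most resembled each member were listed over 22 sums of library and class with at least 10 cells, by Pearson's r of log2(CPM + 1), as a description. Bmp5 was closest to Dkk3 (r = 0.97), Grem1 to Pdzrn4 (0.95), Bmp7 to Dkk1 (0.95), Chrdl1 to Aldh1a2 (0.93), Bmp6 to Adcy2 (0.93) and Bambi to Pls3 (0.91). Nog was closest to Acot1 (0.90), Bmp2 to Gtf2ird1 (0.88), Bmp4 to Gm15222 (0.87) and Chrd to Slc36a2 (0.87). Among the members themselves, Grem1 and Chrdl1 were the most alike (r = 0.82), then Bmp7 and Bambi (0.75), and Chrdl1 and Bambi were the most opposed (-0.76). Sums of 1 library share its depth and preparation.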

How the data were processed

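Gene by barcode matrices of 4 single-cell libraries were used as the authors deposited them, as whole-number, unnormalized UMI counts. They come from Cell Ranger with mm10, per the submitters' processing notes, version 5.0.1 for the first library of each genotype and 6.1.2 for the second; these pairs are called batches, although the matrix headers name other versions. Barcodes with at least 1000 UMIs, 500 genes and at most 10% mitochondrial UMIs were kept. A cell took the class with the highest mean marker score if that score reached 0.2, at least 3 markers were detected and no other class exceeded 0.8 of it; otherwise it was set aside as mixed or ungated (147, 27, 192 and 358 mixed cells; 253, 86, 170 and 262 ungated). The gate was set after the files had been seen, no doublet caller was run, and 1 alternative left out the top 5% of cells by UMI. The UMI counts of each class in each library were added up and fitted with edgeR 4.0.16 (R 4.3.3; TMM, filterByExpr, quasi-likelihood, batch and genotype) where each library had at least 10 cells. Genotype fits within a class had 1 residual degree of freedom, with infinite prior degrees of freedom in bone, stromal, chondrocyte and endothelial cells, where all genes share 1 spread. DESeq2 1.42.0, other filters and left-out libraries were alternatives. On simulated counts, 72% of genes changed by a log2 of 1 were recovered in mesenchyme and 27% in stromal cells. The simulated counts had 1 fixed spread and no batch effect, and only genes with enough expected counts in every library were changed. These shares therefore do not give the recovery of members with low counts. CPM carry exact 95% Poisson intervals and shares exact binomial ones, for counting error only. Members and gene lists were chosen with earlier results of these data known, and other genes were named by p, at most 4 a list, in mesenchyme, bone or endothelial cells; 1 gene that this rule names is not reported here. Gene positions follow GENCODE M21.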

Additional observations from a re-analysis of the deposited data

Results flagged for a closer look

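The genotype difference of Bmp4 was larger in bone than in stromal cells by 2.02 ± 0.38 on the log2 scale, and that of Grem1 by 4.29 ± 0.82, both past the edgeR threshold for the difference itself. The genotype difference of Bmp2 was larger in bone cells than in chondrocytes by 3.77 ± 0.51, also past that threshold. Over the alternatives these values ran from 1.62 to 3.30 for Bmp4, from 1.81 to 13.5 for Grem1 and from 2.09 to 15.8 for Bmp2. Each call was lost in some of them, as given above with the class by genotype term. Bmp4 was lower in both mutants than in both controls in stromal cells (log2 -0.19) and higher in both mutants in endothelial cells (12.01 and 6.47 CPM against 5.73 and 4.18 CPM), and this difference between stromal and endothelial cells was not tested. Neither passed on its own (edgeR adjusted p = 0.73 and 0.9998), the first-batch endothelial values rest on 1 and 4 UMIs, and the stromal sign turned in 2 alternatives. Outside the compared classes, Bmp4 was found in mural cells, which wrap blood vessels, at 149 CPM in mutant 1 (103 UMIs in 46 cells) and 105 CPM in mutant 2 (19 UMIs in 10 cells). It had no UMI in the 8 and 5 mural cells of the controls, where 3 UMIs would have been 55.1 and 90.1 CPM.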

How the results depend on the processing

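The batch term of the genotype fits pairs control 1 with mutant 1 and control 2 with mutant 2, so these were paired fits, and the fits without the batch term are the unpaired ones. With a library left out, fits drop the batch term too: No paired analysis was possible there because 3 libraries leave no residual degrees of freedom with it. For member calls past the threshold, 263 recomputed values kept their side and 27 lost it under processing alternatives, and 91 kept and 56 lost it with a library left out, where a lone library is assumed to vary like the rest. Genes called in mesenchyme were 3968, and 2244 without the batch term, 2539 in DESeq2 and 351 to 2355 with a library left out (members 4 to 8). In bone cells 3048 genes became 934 without the batch term, 1148 in DESeq2, 1923 without the top 5% of cells by UMI and 9 to 1683 with a library left out, and the 7 members 3, 4, 7 and 0 to 5. In mature osteoblasts 2179 genes became 771, 803 and 305 to 1093 (no batch term, DESeq2, a library left out), and 4 members 2, 1 and 1 to 4. In stromal cells 884 genes became 297, 221 and 89 to 840, and 5 members 4, 3 and 2 to 4. In chondrocytes 307 genes became 159, 121 and 0 to 295, and 2 members 1, 0 and 0 to 2, with 1 without the filter on low counts. In endothelial cells 624 genes became 74, 119 and 2 to 473, and 1 member 0, 0 and 0 to 0. Bone against endothelial cells had 5853 genes, and 3879 to 5447 with a library left out (members 6 to 8), and stromal against bone cells 5711, and 2574 in DESeq2. The difference of genotype effects between bone and endothelial cells had 304 genes, and 201 with DESeq2 size factors, 102 in DESeq2, 475 without the filter, 202 with stricter cells and 104 to 413 with a library left out. That between bone and stromal cells had 505 genes (147 in DESeq2, 102 to 639 with a library left out) and 2 members (1, and 1 to 2), and that between bone cells and chondrocytes 370 (115, and 116 to 332) and 1 member (0, and 0 to 1). Uncalled differences that changed sign were Grem1 in bone cells (-2.58 to 7.44 with a library left out, against no UMI in control 2), Bmp7 in mature osteoblasts (-1.19 to 0.26), Bambi in chondrocytes (-0.36 to 0.54) and Bmp2 in endothelial cells (-0.013 to 0.66). Bmp4 in stromal cells ran from -0.42 to 0.0035 with a library left out and turned to 0.040 without the top 5% of cells by UMI, and its detected share to 3.37 percentage points higher in mutants in a second thinning draw, added after the data had been seen. Asking for 1 more marker kept the same 1059 stromal, 3540 bone and 61 chondrocyte cells, so it tests nothing there, though its values are among those that kept their side. The cause of these changes was not tested. Osteocyte-like and progenitor-like cells were fitted without control 2 alone (77 and 9 genes called), and chondrocytes were not fitted with stricter cells or without the top 5% by UMI, with under 10 cells in a library.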

Other observations

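Mural and fibroblast cells, set aside because they were too few, held other members. Bambi had 84 UMIs in the mural cells of mutant 1 and 12 in those of mutant 2 (121 and 66.1 CPM), and 0 and 1 UMIs in the controls. Nog had 8 and 18 UMIs in the mural cells of mutant 1 and mutant 2. The 31 fibroblasts of mutant 1 held 27 UMIs of Chrdl1, 23 of Bmp4 and 18 of Bmp5, and the 4 fibroblasts of control 1 held 5 of Bmp4, 2 of Bmp5 and none of Chrdl1.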
